A study of Mus musculus with 3 samples.

Results

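Phase II conjugation was described here through 68 protein-coding mouse genes in 3 enzyme superfamilies: 25 glutathione S-transferases (GST, including the microsomal MGST), 22 UDP-glucuronosyltransferases (UGT) and 21 cytosolic sulfotransferases (SULT). They are all the protein-coding rows, among 35824 genes counted, whose symbol begins with Ugt, Gst with a class letter, Mgst or Sult followed by a number, and measured levels played no part in the choice. Another 7 rows with such symbols are not annotated as protein-coding and were left out. RNA-seq had been done on intestinal epithelial cells (IEC) sorted from murine small intestinal organoids (SIO), grown from distal small intestine, that had shared a culture with type-3 innate lymphoid cells (ILC3) for 4 days, a condition named IEC + ILC3. The organoids came from female CD45.1 C57BL/6 mice of 6 to 8 weeks, were grown in a basement membrane matrix, and stand for epithelium without stroma or microbiota. Their medium held acetyl-L-cysteine, a cysteine donor for glutathione. For co-culture it was also given β-mercaptoethanol, a further thiol, and interleukins. All 3 libraries, A, B and C, carry this one treatment and are labelled as biological replicates, A and B as kept for the final analysis and C as excluded from it. Organoids cultured alone (IEC ONLY) were not analysed here, and no value below measures an effect of ILC3.

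These enzymes attach a water-soluble group to drugs, dietary compounds, steroids, bile acids and reactive lipids, so that transporters can move the product out of the cell. GST use glutathione, UGT use UDP-glucuronic acid and SULT use the sulfate donor PAPS. The small intestinal epithelium, above all its absorptive enterocytes, is a major site of this metabolism of ingested compounds.

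The libraries held 17946361 (A), 23142849 (B) and 28913885 (C) estimated counts, and 11986 to 12964 genes reached 10 counts. Epithelial identity was clear from Krt8, a keratin, at 4883, 5403 and 5835 CPM in A, B and C, where CPM scales the counts to a common library size. Of 14 ILC3 and lymphocyte markers, 8 were at 0 in every library, Il22, Il17a and Ncr1 among them, and Ptprc, which encodes CD45, had 1, 0 and 0 counts. The 8 stroma markers summed to 0.244 to 6.79 CPM. As these are bulk samples, fewer cells of a type and less RNA per cell cannot be told apart.

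Several of these genes are near copies of each other, which bears on how reads were divided among them, so the sequences that show it come first, as coding sequence of GENCODE M21 read 5′ to 3′. All coordinates are on GRCm38. The 9 Ugt1a genes overlap at chr1:88055388-88220002 on the plus strand. Each starts with a first exon of its own and continues into the same downstream exons, which supply 738 coding bases, 45.9% of the coding sequence of Ugt1a1 and 46.5% of that of Ugt1a9. The stretches across that junction show it for the 4 members with most counts, 60 bases of the own exon in lower case and the first 30 bases of the common exons in capitals:
Ugt1a7c: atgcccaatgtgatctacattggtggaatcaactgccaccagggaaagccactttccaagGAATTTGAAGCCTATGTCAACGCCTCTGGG
Ugt1a6a: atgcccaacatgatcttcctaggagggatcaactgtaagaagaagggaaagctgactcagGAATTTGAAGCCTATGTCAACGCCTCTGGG
Ugt1a1: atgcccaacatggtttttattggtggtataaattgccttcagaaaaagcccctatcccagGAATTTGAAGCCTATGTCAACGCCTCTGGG
Ugt1a9: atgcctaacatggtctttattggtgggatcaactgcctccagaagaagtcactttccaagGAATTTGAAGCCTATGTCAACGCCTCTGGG
A read that lies wholly within those 738 bases fits all 9 genes. In GENCODE M21, moreover, 1 of the 3 coding transcripts listed under Ugt1a7c contains the whole Ugt1a6a coding sequence, so that counts of these 2 genes are uncertain one by one.

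Gstp1 and Gstp2 lie side by side at chr19:4035407-4046023 on the minus strand, and their coding sequences of 633 bases differ at 12 positions (98.1% identical). Of these, 6 fall in the first 90 coding bases, marked in capitals:
Gstp1: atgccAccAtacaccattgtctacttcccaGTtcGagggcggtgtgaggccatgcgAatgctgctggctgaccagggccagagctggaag
Gstp2: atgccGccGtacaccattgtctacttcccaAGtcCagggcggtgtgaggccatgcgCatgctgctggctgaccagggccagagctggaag
Gstm1 and Gstm3, on the minus strand of the mu cluster at chr3:107895821-108044894, differ at 11 of the same 90 positions:
Gstm1: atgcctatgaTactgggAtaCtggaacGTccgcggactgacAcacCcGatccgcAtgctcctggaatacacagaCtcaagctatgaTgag
Gstm3: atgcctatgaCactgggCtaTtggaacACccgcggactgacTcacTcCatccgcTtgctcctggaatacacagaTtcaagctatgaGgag
Gsta1 and Gsta2, at chr9:78230656-78355788 on opposite strands, are identical over these 90 bases and 97.5% identical over the aligned coding sequence:
Gsta1: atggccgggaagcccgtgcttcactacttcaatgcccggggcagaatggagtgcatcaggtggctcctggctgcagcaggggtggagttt

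The extent of such sharing was measured as the percentage of 31-base stretches of a gene's coding transcripts that also occur in transcripts of another gene. Among the 39 members with at least 10 counts in every library, 10 shared over 50% and 21 under 5%, with a median of 4.33%. All 5 such Ugt1a genes were above 50%, with Ugt1a6a at 96.8% and Ugt1a7c at 56.1%. Gsta1 reached 92.2%, of which 87.8 percentage points were shared with Gm3776, a protein-coding gene whose symbol lies outside the choice and which was looked up for this reason after the values were seen. The microsomal and sulfotransferase members among the 39 stood at 4.33% or less. Gstm3 was intermediate at 37.7%, and its closest relative by this measure, the pseudogene Gm8834, had only 7, 4 and 2 counts.

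**Figure D1:**
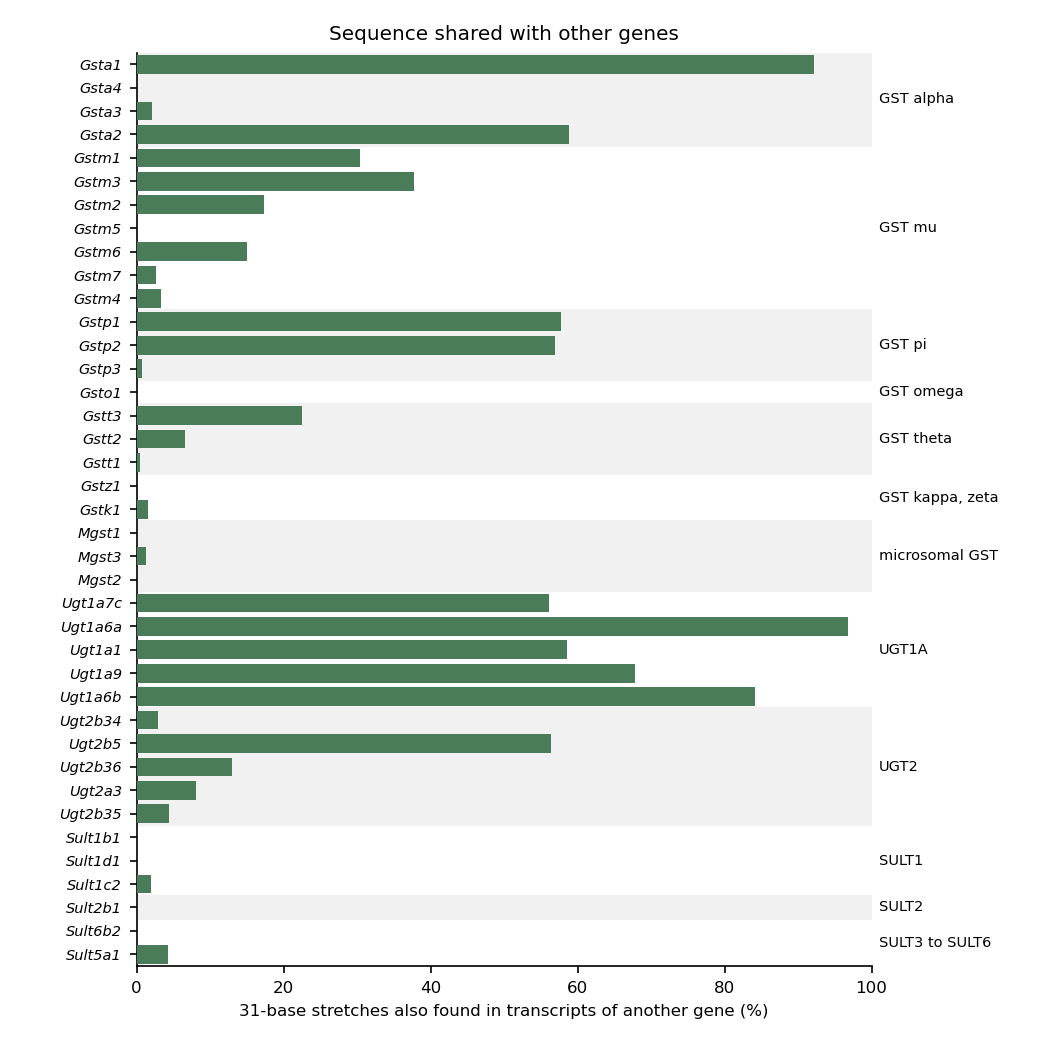
Percentage of 31-base stretches of each gene's coding transcripts that are also found in transcripts of another gene, for the 39 members with at least 10 counts in every library, grouped by class. The bars of the 5 Ugt1a genes, Gsta1, Gsta2, Gstp1, Gstp2 and Ugt2b5 pass 50%, while 21 members are below 5%.

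The superfamilies differed in how many members were present. At least 10 counts in every library were found for 23 of 25 GST, 10 of 22 UGT and 6 of 21 SULT, and 21 members had no count in any library. The GST at 0 was Gstt4. The UGT at 0 were Ugt1a8, Ugt1a10, Ugt2a1, Ugt2a2, Ugt2b37, Ugt3a1, Ugt3a2 and Ugt8a, the last known for galactosylceramide synthesis in myelinating cells. The 12 SULT at 0 were Sult1c1, the estrogen sulfotransferase Sult1e1, Sult3a1, Sult3a2, the brain form Sult4a1 and 7 of the 8 Sult2a genes, which sulfate bile acids and steroids in liver. For a gene at 0, a limit of 3 counts allowed up to 0.166 CPM in A, 0.130 CPM in B and 0.105 CPM in C, for counting error only.

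Members between these extremes numbered 8. The phenol sulfotransferase Sult1a1 had 14 counts in A and 0 in B and C. Ugt2b1 had 17 and 23 counts in A and B and 0 in C, where its level was at least 9.24-fold lower than the mean of A and B when set against 3 counts in C, with an edgeR adjusted p of 0.198. Ugt1a2 had 9, 28 and 101 counts, Ugt1a5 had 0, 2 and 0, and the other 4, Gsto2, Sult2a8, Sult6b1 and Ugt2b38, had at most 3 counts in a library.

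Levels between genes were compared as CPM per kilobase of transcript. GST made up 89.4%, 91.7% and 91.2% of the summed CPM per kilobase of all 68 members in A, B and C (90.8% ± 1.21, SD, n = 3). UGT made up 8.05%, 6.36% and 7.11% (7.17% ± 0.847) and SULT 2.54%, 1.94% and 1.67% (2.05% ± 0.446). These ranges did not overlap. Without division by length, the mean shares were 78.5%, 17.6% and 3.92% in the same order. Together the members accounted for 1.62%, 1.16% and 1.83% of the summed CPM per kilobase of protein-coding genes. The 3 shares come from the same libraries and were not tested against each other.

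**Figure D2:**
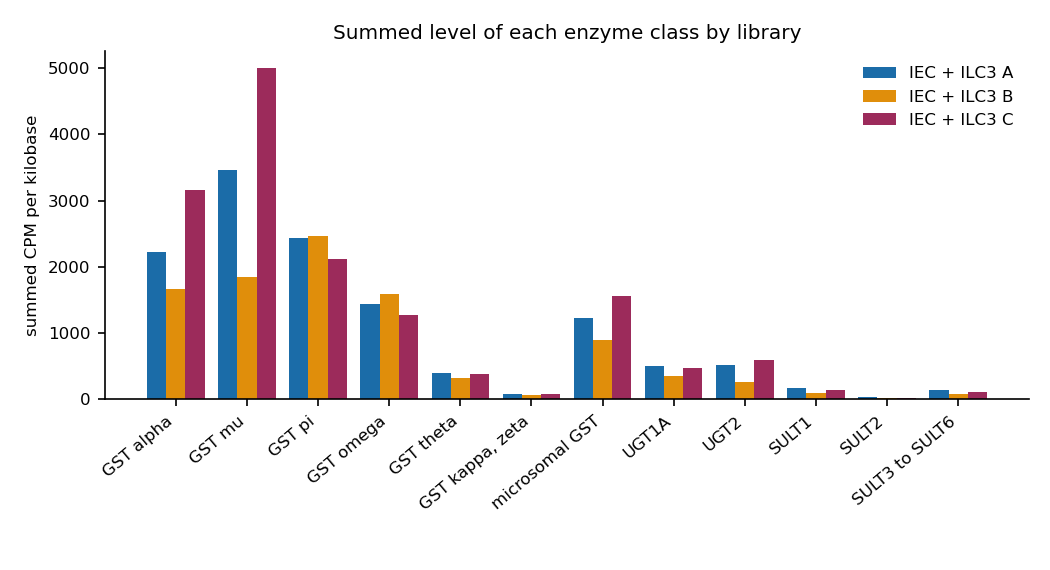
Summed CPM per kilobase of each enzyme class (bars from 0) in IEC + ILC3 A, B and C, a single library per bar. GST mu is the highest class in A and C, at 3462 and 5005, but not in B, at 1846, where GST pi is higher at 2470, and the SULT classes stay at or below 165. The GST alpha bars leave out Gm3776, the near copy of Gsta1, at 1041, 717 and 1652 CPM per kilobase in A, B and C, so the rank of that class depends on the choice of genes.

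The 5 leading GST among the members were Gstm1, Gstp1, Gsta1, Gsto1 and Gstm3, and only part of their order held in every library. Gstm1, a mu-class enzyme that conjugates electrophiles such as epoxides, was at 2126, 1113 and 2434 CPM per kilobase in A, B and C (1891 ± 691). Gstp1, the pi-class enzyme with the same kind of activity, was at 1934, 1934 and 1759 (1876 ± 101). They ranked 48 and 49 among all protein-coding genes by mean CPM per kilobase. Gsta1, an alpha-class enzyme that also reduces lipid hydroperoxides, was at 1321, 937 and 2134 CPM per kilobase (1464 ± 611). The omega-class enzyme Gsto1, a thiol transferase and dehydroascorbate reductase, was at 1431, 1586 and 1276 (1431 ± 155), and Gstm3 at 946, 429 and 2056 (1144 ± 831). Each neighbour in this order differed by less than the SD of the more variable gene of the pair. Within each library, at the lengths used here, Gstm1 was above Gsta1 and Gstm3, Gsta1 above Gstm3 and Gstp1 above Gsto1. The other pairs changed places between libraries. With the longest transcript as length, the mean of Gsto1 was 948 CPM per kilobase, below that of Gstm3.

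These leading genes differed in how far they varied. Gstp1 and Gsto1 varied little between libraries, with coefficients of variation of the CPM of 5.40% and 10.8%. Gstm1, Gsta1 and Gstm3 varied more, at 36.5%, 41.7% and 72.7%, and each was lowest in B and highest in C. Gstm3 and Gstm1 summed to 3117, 1545 and 4844 CPM, so the same order held for the pair.

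Within the alpha class, Gsta4, which favours 4-hydroxynonenal and related products of lipid peroxidation, was at 591, 428 and 493 CPM per kilobase. Gsta3, known for steroid isomerase activity in other mammals, was at 256, 262 and 478, with C alone set apart, and its mean was 204 in place of 332 CPM per kilobase with the longest transcript. Gsta2, named for its likeness to Gsta1 after the values were seen, reached 40.7 to 52.9 CPM per kilobase with a coding sequence 97.5% identical to that of Gsta1. Gm3776, the near copy of Gsta1, was at 1041, 717 and 1652 CPM per kilobase, and its counts were 78.7%, 76.4% and 77.3% of those of Gsta1 in A, B and C. The 2 genes together were at 2066, 1447 and 3312 CPM, in the same order of libraries as Gsta1 alone.

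In the mu class, Gstm2 followed at 182, 125 and 253 CPM per kilobase, and 6 of 7 genes, all but Gstm7, had the order B, A, C from low to high. In the pi class, Gstp2 was at 476, 508 and 332 CPM per kilobase (mean 439, or 260 with the longest transcript) and Gstp3 at 25.3, 28.1 and 20.4. Gstp2 had 14.4%, 15.4% and 11.1% of the counts of Gstp1, and all 3 pi genes were lowest in C. The theta class, which handles small halogenated compounds, had Gstt3 at 212, 174 and 145 CPM per kilobase, Gstt2 at 80.7, 74.6 and 125 and Gstt1 at 94.7, 63.8 and 103. Their order depends on the length used, since with the longest transcript the means were 72.4, 44.9 and 81.6 CPM per kilobase in the same order. Gstz1, the maleylacetoacetate isomerase of tyrosine breakdown, was at 39.5 to 52.1, and Gstk1, the kappa-class enzyme of mitochondria and peroxisomes, at 16.6 to 23.6 CPM per kilobase.

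The microsomal enzymes sit in membranes and are unrelated in sequence to the cytosolic ones. Mgst1, which conjugates electrophiles and reduces lipid peroxides, was at 505, 283 and 748 CPM per kilobase. Mgst3, a glutathione peroxidase of membranes, was at 386, 274 and 516, again with B lowest and C highest. Mgst2, which can form leukotriene C4, was at 340, 334 and 299, a coefficient of variation of 6.94%.

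**Figure D3:**
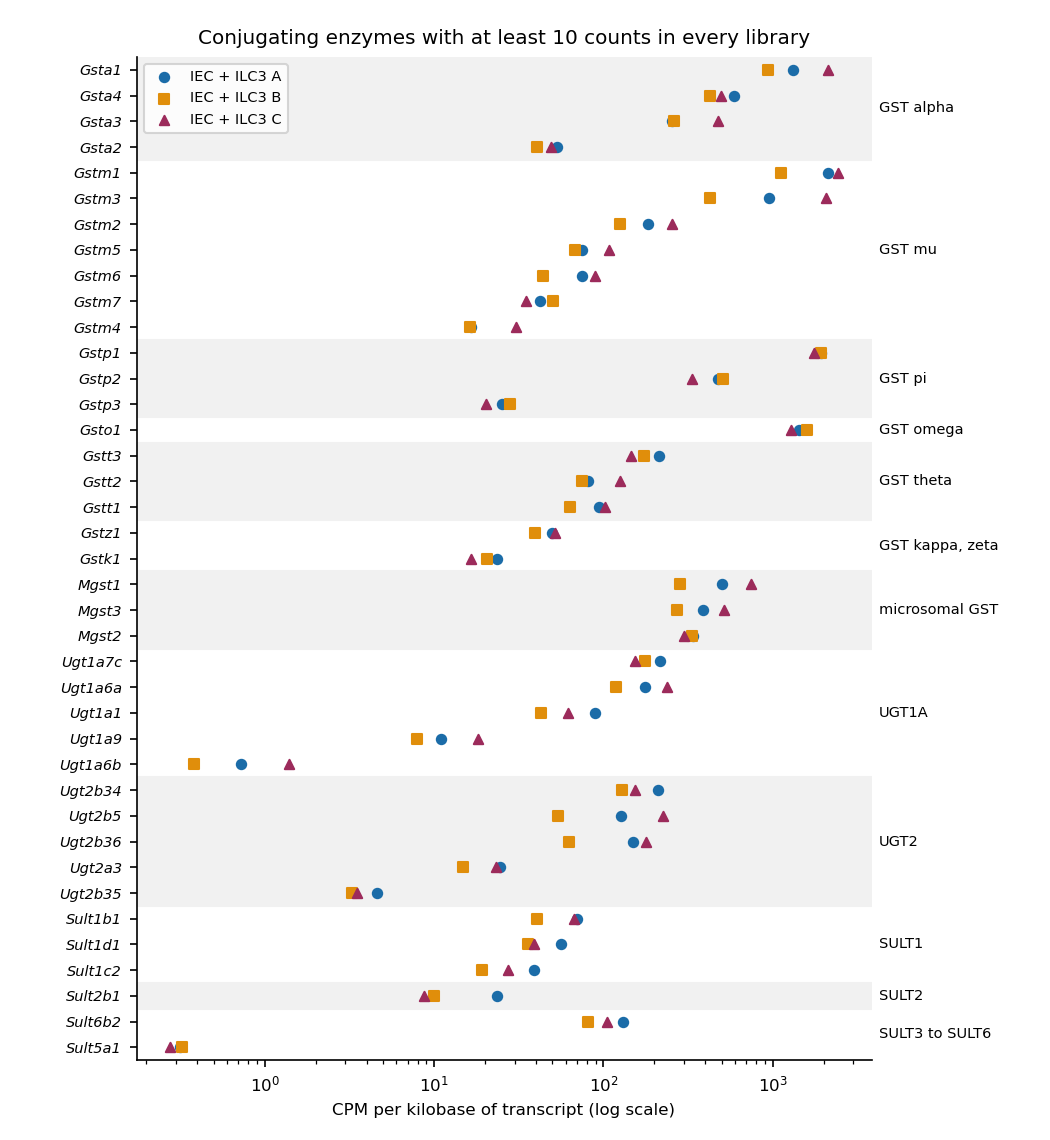
CPM per kilobase on a log axis for the 39 members with at least 10 counts in every library, a point per library (circle, A; square, B; triangle, C), ordered within class by mean level. The 5 leading GST lie between 429 and 2434 CPM per kilobase, every UGT at or below 237 and every SULT at or below 130. B is the lowest point in 27 of the 39 rows (69.2%), beside 35.0% of all 11232 genes with such counts.

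Among UGT, both large classes were present at like summed levels, UGT1A at 494, 348 and 473 CPM per kilobase and UGT2 at 518, 264 and 583. Ugt1a7c, which acts on phenols, was at 216, 177 and 154 CPM per kilobase. Ugt1a6a, the enzyme for small planar phenols, was at 177, 120 and 237. Ugt1a7c was the lower of the 2 in C alone, where Ugt1a6a held 108% of the counts of Ugt1a7c, against 57.2% in A and 47.4% in B. The 5 leading UGT, these 2 with Ugt2b34, Ugt2b5 and Ugt2b36, overlapped in CPM per kilobase over the libraries, and only part of their order held in each. Ugt1a7c was above Ugt2b34, and Ugt1a6a above Ugt2b5 and Ugt2b36, in A, B and C. The other pairs changed places. The sum of Ugt1a6a and Ugt1a7c was 1099, 842 and 1033 CPM, and C was then within the range of A and B.

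Ugt1a1, the bilirubin UGT, was at 89.8, 43.0 and 61.5 CPM per kilobase with C between A and B. Ugt1a9 ranged from 7.94 in B to 18.2 CPM per kilobase in C. Ugt1a6b, whose coding sequence is 98.4% identical to that of Ugt1a6a, was at 0.727, 0.380 and 1.39, and Ugt1a2 at 0.225, 0.548 and 1.59 CPM per kilobase. Both had at most 101 counts in a library, beside relatives with far more counts and the same downstream exons. All 9 Ugt1a genes summed to 1324, 958 and 1217 CPM.

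The UGT2 genes lie at chr5:86889767-87490871 and include enzymes for steroids and bile acids. Ugt2b34 was at 211, 129 and 153 CPM per kilobase. Ugt2b5 was at 128, 54.0 and 224, and Ugt2b36 at 149, 62.3 and 179. For all 3, B was the lowest library, and Ugt2b5 had the widest spread, a coefficient of variation of 63.1%. The level of Ugt2b36 depends on the length used, and with its longest transcript the mean was 56.4 in place of 130 CPM per kilobase. Ugt2b5 shares 44.9% of its 31-base stretches with Ugt2b38, which had 0, 2 and 1 counts.

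The highest SULT was Sult6b2, at 130, 81.3 and 106 CPM per kilobase. Sult1b1, which sulfates thyroid hormones and phenols, was at 69.9, 40.3 and 67.4. Sult1d1, an enzyme for catecholamines in mouse, was at 56.0, 36.1 and 38.9. Sult1c2 was at 38.8, 19.3 and 27.3, so that in all 3 SULT1 genes B was lowest and A highest. Sult2b1, the cholesterol sulfotransferase, was at 23.7, 9.99 and 8.68, with A apart from B and C (mean 14.1, or 9.25 with the longest transcript). Sult5a1 had 13, 17 and 18 counts, or 0.315, 0.323 and 0.276 CPM per kilobase (mean 0.305, or 0.182 with the longest transcript). C was the highest library for 0 of 6 SULT, 5 of 10 UGT and 13 of 23 GST, beside 41.1% of all 11232 genes with such counts, and these counts, small for SULT and UGT, were not tested against each other.

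The libraries kept for the final analysis, A and B, differed along the whole set. B was lower than A in 32 of the 40 members with at least 10 counts in both (80.0%), and the median log2 ratio of the CPM in B to that in A was −0.49. Over all 11989 genes with such counts, 51.4% were lower in B and the median was −0.02. By superfamily, 17 of 23 GST, 10 of 11 UGT and 5 of 6 SULT were lower in B, with median log2 ratios of −0.29, −0.71 and −0.74. The pi-class genes (3 of 3) and Gsto1 were not lower. A single library per side allows no test of this difference.

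Markers of cell types moved between the same libraries. The 25 enterocyte markers summed to 14421, 8807 and 9443 CPM in A, B and C, and 24 of them reached 10 counts in each library, the exception being Lct with 3, 0 and 0. The 12 Paneth cell markers, all above 10 counts, summed to 15766, 22312 and 22355 CPM, and the 10 goblet cell markers to 2701, 3414 and 2287 CPM. Thus B had fewer enterocyte and more Paneth transcripts than A, and their part in the lower level of conjugating enzymes was not tested. In C the enterocyte sum was also below that of A, while the summed CPM of the members, 12915, 9369 and 15324 in A, B and C, was highest in C.

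The one contrast that the labels offer is that of the excluded library C with A and B. With edgeR's quasi-likelihood test and Benjamini-Hochberg adjustment over 13604 genes, 1 of 41 members tested passed an adjusted p of 0.1, and it was higher in C. Over all genes 1.36% were called higher and 5.2% lower (6.56% in either direction), and a single call among 41 is no result about the members beside these shares. The test has 1 residual degree of freedom, takes C to vary like A and B, and compares libraries, not conditions.

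The member called was Gstm3, at 1240, 562 and 2695 CPM in A, B and C. C was above both, and the log2 fold change was 1.58 (SE 0.43, edgeR adjusted p = 0.0966). B itself was 0.453 times A, and the log2 difference was 1.12 against A alone and 2.26 against B alone. The call was lost with DESeq2's size factors (adjusted p = 0.108), with the trend over transcript length removed (0.128) and at a threshold of 0.05, and over all alternatives the adjusted p lay between 5.48e-06 and 0.128.

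Other members came close without passing. Ugt2b5, at 237, 100 and 416 CPM, had a log2 fold change of 1.30 (SE 0.45) and an edgeR adjusted p of 0.150. Gsta3, at 229, 234 and 427 CPM, had 0.88 (SE 0.27, adjusted p = 0.121), and Gsta1, at 1156, 820 and 1867 CPM, had 0.92 (SE 0.31, adjusted p = 0.145). In each of the 3, C lay above A and B. Among the 7 alternative fits, Ugt2b5 and Gsta3 were each called in 3, Gsta1 and Mgst1 in 2 and Ugt2b36 in 1, with adjusted p down to 0.000657 for Ugt2b5 and up to 0.206. At an unadjusted p under 0.05 there were 9 members, 8 higher and 1 lower in C (21.95% of 41). Over all genes tested the share was 22.3%, with 1123 higher and 1908 lower, so the totals were alike and the directions were not.

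Without a threshold, C was above both A and B in 19 of 41 (46.3%) and below both in 12 (29.3%), and between them in 10, whose direction therefore differs against A and against B. The first 2 shares stood against 37.3% and 41.2% of all genes tested. The median log2 fold change of the members was 0.22, with 0.37 for GST, 0.46 for UGT and −0.15 for SULT, and −0.10 over all genes. Within UGT it was 0.81 for UGT1A and 0.04 for UGT2. The UGT1A median rests on genes whose counts are uncertain one by one. Summed, the 9 Ugt1a genes were in C at 1.07 times the mean of A and B. Classes differed in sign: the mu class had a median of 0.60, the pi class −0.39 and Sult2b1 a value of −0.95 (SE 0.59, edgeR adjusted p = 0.360). With the trend over transcript length removed, the log2 fold change fell for every GST tested. Gstt1, the GST median, went from 0.37 to 0.16, and Gstm5, the mu median, from 0.60 to 0.40. Not all members fell, and Ugt1a7c rose from −0.35 to −0.18. Over all genes the median was then −0.11. The order B, A, C from low to high was seen in 17 of 39 members (43.6%), 12 of them GST, and in 24.2% of 11232 genes with at least 10 counts in every library. Marker lists were set beside this contrast. Of the enterocyte markers 24 were tested, 2 were called lower in C and 0 higher, with a median log2 fold change of −0.59. Of the 10 goblet cell markers 4 were called lower. No Paneth, stem or epithelium marker was called, with medians of 0.19, 0.02 and −0.16. Over all genes 5.2% were called lower, and the 2 enterocyte calls are no result about that list beside this share. The part of these cell types in the members' values was not tested.

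**Figure D4:**
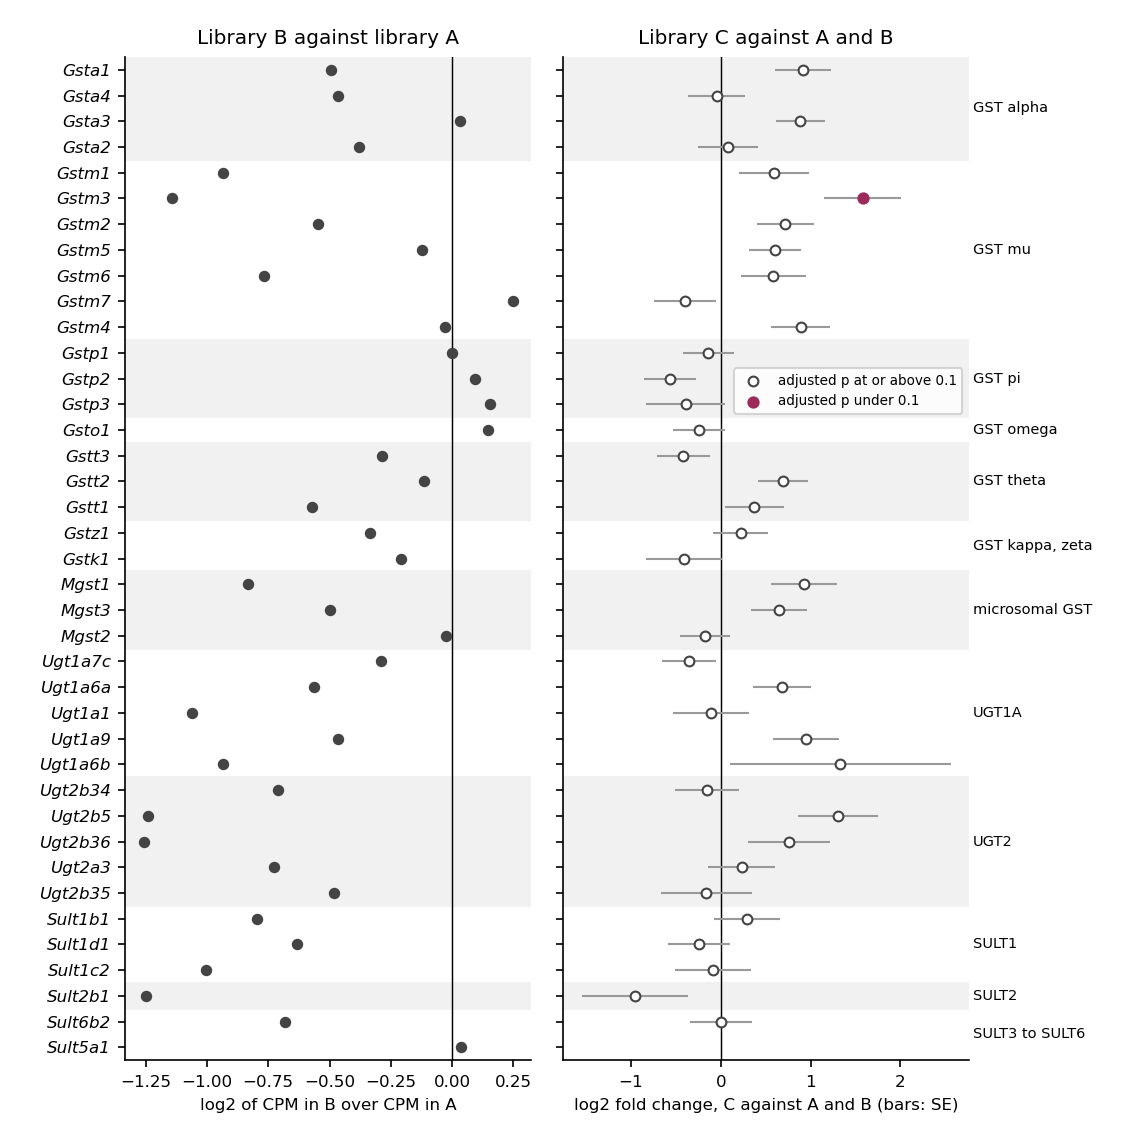
Left, log2 of the CPM in B over the CPM in A for the 39 members with at least 10 counts in every library. Right, log2 fold change of C against A and B from edgeR with its SE (bars), filled where the adjusted p is under 0.1; Sult5a1, at −0.21 with an SE of 1.80, is left out on the right. Most points on the left are below 0 except in the pi and omega classes, and Gstm3 is the only filled point on the right.

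The genes that supply and steer these enzymes gave a similar count. Of 70 genes in 6 lists, 69 had a row, 66 were tested, 0 were called higher in C and 1 lower, with a median log2 fold change of −0.07. Over all genes 1.36% were called higher and 5.2% lower, and a single call among 66 is no result about these lists. The gene called was Ahr, which encodes the aryl hydrocarbon receptor that induces UGT1A and other detoxifying genes. It was at 31.1, 25.8 and 7.26 CPM in A, B and C, with C below both (log2 fold change −1.97, edgeR adjusted p = 0.0628). It stayed under 0.1 in all 7 alternative fits, and its adjusted p of 0.0628 misses a threshold of 0.05.

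In the list for supply of UDP-glucuronic acid the highest was Ugdh, the dehydrogenase that makes it, at 649, 499 and 666 CPM per kilobase. Next were Slc35a3, a Golgi transporter of UDP-N-acetylglucosamine, at 315, 246 and 176, and Pgm2, a phosphoglucomutase, at 92.8, 80.8 and 135. Slc35d1, a carrier of UDP-glucuronic acid, was lower at 8.27, 1.99 and 4.87 CPM per kilobase. None of the 7 genes was called. For glutathione, the highest were Slc3a2, the heavy chain of the cystine transporter, at 385, 451 and 388 CPM per kilobase, Pgd, an NADPH-forming enzyme, at 299, 346 and 206, and the glutathione reductase Gsr at 271, 238 and 302, with 0 of 14 called. The cystine transporter light chain Slc7a11 and Chac1 of the same list, singled out after their values were seen, were lowest in C. Slc7a11 was at 10.8, 14.0 and 3.00 CPM, with an edgeR adjusted p of 0.118. Chac1 was at 8.39, 17.0 and 2.37 CPM, with an edgeR adjusted p of 0.113. The median log2 fold change of the 14 genes tested in this list was −0.05. For PAPS, the highest were Bpnt1, which degrades the spent cofactor, at 431, 307 and 367 CPM per kilobase, the PAPS transporter Slc35b2 at 90.3, 69.9 and 89.2, and the PAPS synthase Papss2 at 101, 71.3 and 60.4, with 0 of 7 called.

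Among 22 regulators the highest were Cdx1, an intestinal homeobox factor, at 137, 131 and 178 CPM per kilobase, Hnf4a, an enterocyte nuclear receptor, at 146, 122 and 80.4, and Nfe2l2, which encodes NRF2, the factor that induces many GST, at 145, 103 and 89.3. Among 11 other NRF2 targets the highest were the peroxiredoxin Prdx1 at 2607, 2455 and 3298, the carbonyl reductase Cbr1 at 444, 357 and 412 and the aldo-keto reductase Akr1b8 at 129, 111 and 208 CPM per kilobase, with 0 of 10 called and a median log2 fold change of 0.28. Export was led by Abcg2, which carries sulfate and glucuronide conjugates, at 191, 110 and 178 CPM per kilobase, ahead of Abcc1 at 52.7, 57.9 and 69.1 and the uptake carrier Slco2b1 at 35.9, 35.7 and 29.98, with 0 of 6 called.

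Promoters from RefSeq (GRCm38.p6), from 250 bases before to 50 after the start, matched 60 of the 68 members and were searched on both strands. The core of the antioxidant response element bound by NRF2, TGACNNNGC, was in 4 of the 60 (6.67%), namely Gsta3, Gstm5, Gstm7 and Mgst1, and in 14.0% of 27025 genes. The HNF1 half-site GTTAAT was in 14 (23.3%), against 8.24% of all genes. Of those 14, 6 belonged to the 36 detected members with a promoter and 7 to the 16 at 0 in every library. An AHR core with a flanking base, TNGCGTG, was in 3 of 60 (against 5.84% of all genes) and a CDX2 core, TTTATNG, in 7 (11.7% against 12.5%). A match describes the letters only, and an element outside the window is not seen.

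Gsta3 and Ugt1a1 are shown as examples, the first with the antioxidant core and the second with the HNF1 half-site in capitals, read along the gene's plus strand at chr1:21240335-21240634 and chr1:88211709-88212008:
Gsta3: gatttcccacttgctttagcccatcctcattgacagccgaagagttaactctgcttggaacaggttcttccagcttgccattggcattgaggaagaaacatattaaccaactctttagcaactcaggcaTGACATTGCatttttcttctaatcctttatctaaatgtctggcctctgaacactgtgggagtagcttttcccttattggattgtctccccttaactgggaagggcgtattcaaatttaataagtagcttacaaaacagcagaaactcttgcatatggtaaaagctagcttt
Ugt1a1: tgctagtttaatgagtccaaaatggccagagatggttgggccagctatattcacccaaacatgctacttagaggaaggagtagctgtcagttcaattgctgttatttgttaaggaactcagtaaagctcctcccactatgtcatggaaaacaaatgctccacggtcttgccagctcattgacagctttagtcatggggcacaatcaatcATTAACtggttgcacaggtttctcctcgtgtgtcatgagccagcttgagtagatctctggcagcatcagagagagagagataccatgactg
In Ugt1a1 the half-site lies on the opposite strand and so reads ATTAAC. Gsta3 also holds the half-site, which is not marked.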

How the data were processed

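IEC were sorted by FACS and sequenced as SMARTSeq2 libraries. Per the submitters' processing notes and methods, the authors trimmed reads with Trimmomatic 0.39, ran Salmon 0.14.1 on transcripts of Ensembl release 98 (GRCm38.p6) and collapsed these to genes by tximport. The table they deposited holds estimated counts, whole numbers as they stand, so nothing was rounded. Salmon shares reads that fit several transcripts by likelihood, so counts of near-identical genes are uncertain one by one.

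CPM used TMM factors (edgeR 4.0.16, R 4.3.3), and levels between genes were divided by the median length of a gene's protein-coding transcripts in GENCODE M21, whose models may differ from those counted. Depth was 17946361 to 28913885 counts. C was tested against A and B with edgeR's quasi-likelihood test after filterByExpr, with Benjamini-Hochberg adjustment at 0.1, and the fit was tested on simulated data. For each gene, the SE was taken as the absolute log2 fold change over the square root of its F value. Alternatives were DESeq2 1.42.0, other scalings and filters, removal of length or GC trends (loess, span 0.5), other lengths and leaving out each library. The labels call the libraries biological replicates, but no source says whether they came from separate cultures. A p-value therefore reflects only how far these samples spread, which may be technical. Counting limits cover counting error only, as PCR copies were not marked by molecular identifiers.

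Named members were the 3 highest of each class with 10 counts in any library, those called and every Ugt1a gene. Members at 0 were named where a class had 5 or fewer. From the supply, regulator and export lists came the 3 highest of each and those called. Members with few counts, Gsta2, Gm3776, Slc7a11, Chac1 and Slc35d1 were named after their values were seen, and promoter examples were chosen by motif. The members and lists were chosen with earlier results of these data known. The summed level of the ILC3 and lymphocyte markers is not reported here.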

Additional observations from a re-analysis of the deposited data

How the results depend on the processing

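The number of members called in C against A and B was 1 with plain library totals and with the GC trend removed, 0 at an adjusted p of 0.05, with DESeq2 size factors and with the length trend removed, 3 with at least 10 counts in every library, 5 with the DESeq2 Wald test and 6 without a filter on low counts. For the supply and regulator genes it was 0 at 0.05, 2 with the GC trend removed, 4 with plain library totals and with at least 10 counts in every library, 5 with the Wald test and 7 without a filter. The log2 fold change of Gstm3 was 1.59 with DESeq2 size factors and 1.39 with the length trend removed, not called in either, and 1.58 with an adjusted p of 0.0966 at the threshold of 0.05, where Ahr at −1.97 was lost too. Against A or B alone Gstm3 was 1.12 to 2.26. Of the genes called in all, 20.7% were higher in C, against 34.3% without a filter and 33.4% with at least 10 counts in every library. Signs changed for members near 0: Gsta2 to −0.13 (length) and −0.0226 (GC), Gstp1 to 0.0267 (GC), Ugt2b34 to 0.0708 and Ugt2b35 to 0.0269 (length), and Sult6b2 to 0.0070, 0.0072 and 0.0070 (DESeq2 size factors, no filter, Wald test). Against A or B alone, the 10 members with C between them also changed sign, such as Ugt1a1 (−0.11, and 0.52 without A), Sult1c2 (−0.09, and 0.50 without A) and Sult1b1 (0.29, and −0.05 without B). The members called were Gstm3, Gsta3 and Ugt2b5 with at least 10 counts, those with Gsta1 and Mgst1 in the Wald test, and these 5 with Ugt2b36 without a filter. Mean shares without division by length were 78.5% for GST, 17.6% for UGT and 3.92% for SULT. The cause of these changes was not tested. Depth limits genes at 0 to the levels given for 3 counts, and with 1 residual degree of freedom a member that was not called may still differ. No paired analysis was possible because all libraries belong to one group.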
